A study of Mus musculus with 12 samples.

Results

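The circadian clock of the heart was followed in 10 genes, Arntl, Clock, Npas2, Per1, Per2, Per3, Cry1, Nr1d1, Nr1d2 and Dbp, which were taken by gene symbol from a table of 51826 entries. All 10 symbols were found, and all 10 genes passed the filter on low counts in every comparison. Their levels came from poly(A) RNA-Seq libraries of the atria and ventricles of 6 female FVB mice at 10 weeks of age. The CUG960 +dox mice (V119, V120 and V123) were homozygous for TREDT960I, a transgene with 960 interrupted CUG repeats in human DMPK exons behind a tetracycline-responsive minimal CMV promoter, and hemizygous for MHCrtTA. The MHCrtTA +dox controls (V327, V333 and V334) were hemizygous for MHCrtTA alone. RNA of the transgene was not analysed here and does not serve as a check of these labels. MHCrtTA places the reverse tetracycline transactivator under the α myosin heavy chain promoter, which is active in cardiomyocytes, so the repeat RNA was induced in that cell type while each library was made from a whole chamber. Both groups were given doxycycline chow from postnatal day 1, and both therefore carried the transactivator and the drug. The time of day at which the hearts were taken is not given in the sources used here.

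The clock is a transcriptional loop that runs in nearly every cell, cardiomyocytes included. ARNTL (BMAL1) pairs with CLOCK or NPAS2 and activates genes that carry E-boxes, among them the Per and Cry genes, Nr1d1, Nr1d2 and Dbp. PER and CRY proteins then inhibit the pair, NR1D1 and NR1D2 (the REV-ERBs) repress Arntl, Clock, Npas2 and Cry1 through ROR elements, and DBP, a PAR bZIP activator, drives genes with D-boxes. In the heart, as in other tissues, Arntl and Npas2 transcripts peak at nearly the opposite time of day from Nr1d1 and Dbp, so that their ratio follows the phase of the clock in a tissue.

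E-boxes, D-boxes and ROR elements were searched for in the RefSeq promoters of the members (GRCm38.p6, from 250 bases before to 50 bases after each annotated start), because they are the sites through which the members are known to regulate each other. The table held 13 promoters of 9 of the 10 members, all but Per2. The letters searched on both strands were CACGTG for the E-box, TTATGTAA or TTACGTAA for the D-box, TAGGTCA or TGGGTCA for the ROR element, and TGACGTCA for the cAMP response element. Matches lay in the promoters of 4 members. The stretches that hold them are shown with the match in capitals, 5′ to 3′ on the strand of the gene, the first with an E-box (Cry1), the second with an E-box (Per1), the third with 2 D-boxes (Per3) and the last with a ROR element (Arntl).
Cry1, chr10:85185079-85185144, minus strand: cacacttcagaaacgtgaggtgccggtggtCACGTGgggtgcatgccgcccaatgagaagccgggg
Per1, chr11:69098753-69098818, plus strand: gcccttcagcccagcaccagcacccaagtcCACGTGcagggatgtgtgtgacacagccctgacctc
Per3, chr4:151044786-151044900, minus strand: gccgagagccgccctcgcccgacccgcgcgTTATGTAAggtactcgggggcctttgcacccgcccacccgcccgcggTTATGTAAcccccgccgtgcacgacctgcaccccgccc
Arntl, chr7:113207530-113207558, plus strand: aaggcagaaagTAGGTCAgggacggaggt
The Cry1 match starts 60 bases and the Per3 matches 205 and 158 bases before the RefSeq start, and both stretches lie before the first annotated exon of their genes in GENCODE M21. The Per1 stretch lies in an intron of the longer transcripts and 166 bases before the RefSeq start, and the Arntl stretch lies in the first, untranslated exon. No cAMP response element was found in the 13 windows, which says only that these letters are absent from them. Of 32851 promoters of the same length, 7.15% held the E-box, 1.06% the D-box, 6.45% the ROR element and 1.79% the cAMP response element. These matches describe the windows and are not evidence of binding.

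Library depth was between 116127966 and 160676189 counts, and the lowest count of any member in any library was 124, for Npas2 in the ventricles of control V327. Levels are CPM, counts scaled to library size, on a single scale normalized by the trimmed mean of M values (TMM) over the 12 libraries. Markers of each chamber were abundant in its own libraries. The summed level of 6 atrial cardiomyocyte markers was 22060 to 29230 CPM in the atrial libraries and 128 to 366 CPM in the ventricular ones, and 5 ventricular markers summed to 1096 to 1464 CPM in atria and 15110 to 19080 CPM in ventricles. A library of each chamber stood apart in other genes. In the atria of control V334, Fos was at 112 CPM and Egr1 at 131 CPM, against 1.56 to 2.92 CPM and 7.88 to 15.4 CPM in the other 5 atrial libraries, and 4 erythroid markers summed to 2749 CPM against 320 to 508 CPM. The ventricles of the same mouse had Fos at 1.85 CPM. In ventricles, mitochondrially encoded genes took 19.6% to 20.5% of counts in controls and 15.3% to 18.4% in CUG960 mice, and the calls of the 10 members were the same when those genes were left out. The ventricles of CUG960 mouse V123 had Myl7 at 55.9 CPM, Myl4 at 86.3 CPM and Sln at 18.6 CPM. These atrial markers were lower in the other 5 ventricular libraries. Control ventricles had 4.98 to 19.3, 12.6 to 37.5 and 2.90 to 7.84 CPM. The ventricles of CUG960 mice V119 and V120 were below all controls, with lowest values of 0.192, 4.36 and 0.213 CPM. Values without V334 are given beside the atrial calls of named genes, and values without V123 beside the ventricular calls of the members.

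To compare levels between genes, CPM were divided by the exonic length of each gene in kilobases. In control atria, Nr1d2 was highest with 22.5 ± 6.72 CPM per kb (SD, n = 3), followed by Dbp with 13.3 ± 10.1, Nr1d1 with 10.2 ± 5.81, Per1 with 9.39 ± 1.35 and Cry1 with 7.68 ± 1.06. Lower on the same per-kb scale came Per2 (4.804 ± 0.056), Clock (4.12 ± 0.745), Per3 (2.87 ± 0.432), Arntl (1.298 ± 0.695) and Npas2 (0.802 ± 0.123). Neighbours from Nr1d2 down to Per1, the pair of Per2 and Clock, and the pair of Arntl and Npas2 differed by less than the larger of their SDs, whereas Per1 and Cry1, Cry1 and Per2, Clock and Per3, and Per3 and Arntl differed by more. In CUG960 atria Dbp was first with 35.8 ± 6.32 CPM per kb and Arntl last with 0.341 ± 0.079 CPM per kb. In ventricles Dbp was first at 33.1 ± 1.61 and Arntl last at 0.267 ± 0.046 CPM per kb in CUG960 mice, and Nr1d2 first at 23.1 ± 4.86 and Npas2 last at 0.267 ± 0.033 CPM per kb in controls. In CUG960 mice Dbp and Nr1d2, at 33.0 ± 1.40 CPM per kb in atria and 29.8 ± 3.97 in ventricles, differed by less than the larger of their SDs in both chambers.

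**Figure D1:**
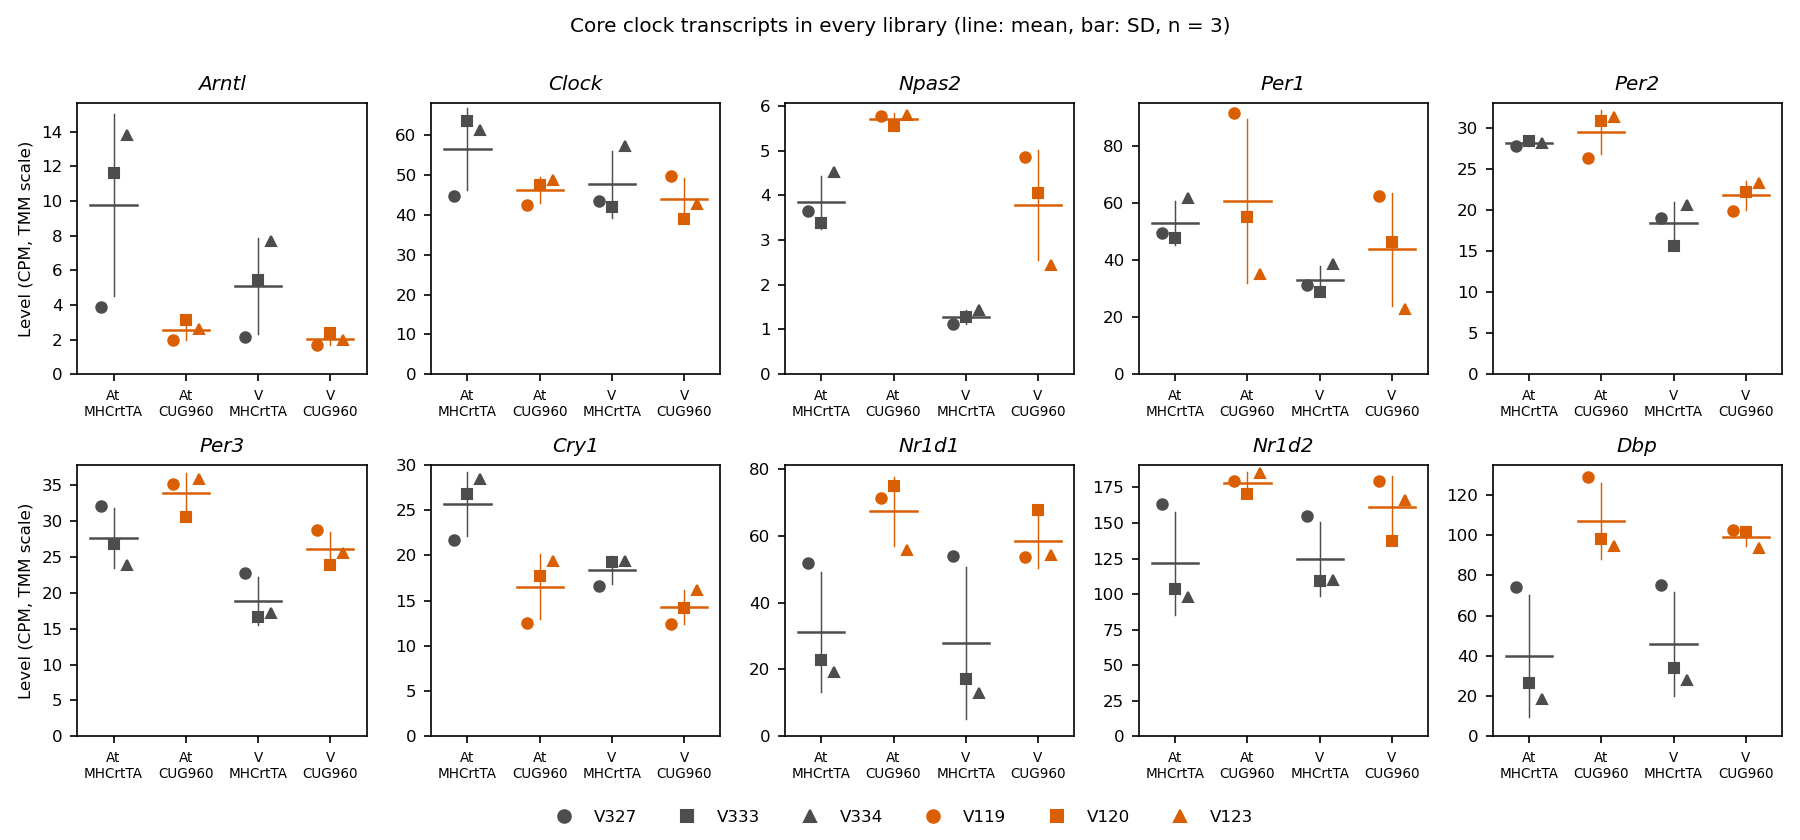
Levels of the 10 clock genes (y axis, CPM on the TMM scale, from 0) in atria (At) and ventricles (V) of MHCrtTA +dox controls (grey) and CUG960 +dox mice (orange); each point is a library, its shape the mouse, horizontal lines are means and vertical bars are SD (n = 3). Control V327 (grey circles) sits near the CUG960 mice for Arntl, Nr1d1, Nr1d2 and Dbp and with the controls for Npas2.

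In the activating limb, Arntl was lower in the atria and Npas2 higher in the ventricles of CUG960 mice. Arntl (chr7:113207465-113314126 in GRCm38, as for all positions here), the partner that both CLOCK and NPAS2 need, was at 3.86, 11.6 and 13.8 CPM in the atria of controls V327, V333 and V334 and at 1.95, 3.14 and 2.62 CPM in those of CUG960 mice V119, V120 and V123. The atrial groups did not overlap, but V327 lay nearer to the CUG960 mice than to the other 2 controls. Arntl fell by 1.93 ± 0.420 on the log2 scale (SE), with an adjusted P value of 0.020 (edgeR, quasi-likelihood test, Benjamini-Hochberg). This atrial value was -1.59 with an adjusted P of 0.048 without V334, -2.31 with 0.0017 without V327, and missed the threshold without V333 (-1.79, adjusted P = 0.062), V119 (-1.77, 0.086), V120 (-2.10, 0.057) or V123 (-1.95, 0.057). In ventricles the levels of Arntl were 2.16, 5.42 and 7.66 CPM in controls and 1.68, 2.37 and 1.98 CPM in CUG960 mice, and V327 was below V120, so the groups overlapped. The ventricular log2 fold change of -1.34 ± 0.373 did not pass the test (adjusted P = 0.053), and without V327 it was -1.70 with an adjusted P of 0.0027, without V334 -0.91 with 0.14. With all mice it was called when a count of 10 was required in each of the libraries (-1.34, adjusted P = 0.048) and with no filter on low counts (-1.33, 0.00092).

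Npas2 (chr1:39193731-39363236), a CLOCK paralogue that can take its place beside ARNTL, went the other way and did not place V327 apart from its group. In ventricles it was at 1.12, 1.27 and 1.44 CPM in the 3 controls and at 4.86, 4.06 and 2.45 CPM in the 3 CUG960 mice. Every CUG960 ventricle was above every control ventricle. Ventricular Npas2 rose by 1.57 ± 0.245 (log2, adjusted P = 0.0050 by edgeR), a 2.97-fold difference, and it was called in the 13 alternatives run for it, with log2 fold changes of 1.35 to 1.80 when a mouse was left out, the highest of them (adjusted P = 0.0011) without V123. In atria the controls were at 3.65, 3.38 and 4.51 CPM and the CUG960 mice at 5.76, 5.54 and 5.79 CPM. These groups did not overlap either, and the log2 fold change of 0.57 ± 0.126 had an adjusted P of 0.022 but stayed under the fold limit of 1.5 (1.48-fold). Without V334 the atrial change was 0.70 (adjusted P = 0.012) and past that limit, and it missed the adjusted P without V327 (0.066), V333 (0.077), V119 (0.076), V120 (0.061) or V123 (0.051) and in a single fit of the 12 libraries (0.086). Clock (chr5:76209868-76304792), the usual partner of ARNTL, was at 44.8, 63.5 and 61.3 CPM in control atria and at 42.6, 47.5 and 48.8 CPM in CUG960 atria. The Clock groups overlapped in both chambers, and neither the atrial log2 fold change of -0.29 ± 0.128 (adjusted P = 0.17) nor the ventricular one of -0.12 (0.63) passed.

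Among the repressors, Cry1 was lower in CUG960 atria and the Per genes showed no called difference. Cry1 (chr10:85131700-85185064), whose protein blocks the ARNTL pair, was at 21.7, 26.8 and 28.5 CPM in control atria and at 12.5, 17.7 and 19.4 CPM in CUG960 atria. All 3 CUG960 atria were under all 3 controls. Atrial Cry1 fell by 0.64 ± 0.164 (log2, adjusted P = 0.037 by edgeR). The call was lost without V334 (-0.55, adjusted P = 0.10), V333 (-0.60, 0.10), V119 (-0.47, 0.076) or V120 (-0.69, 0.088). In ventricles, controls at 16.7, 19.2 and 19.4 CPM and CUG960 mice at 12.5, 14.2 and 16.2 CPM were again apart, with a log2 fold change of -0.37 that did not pass (adjusted P = 0.081). Cry1 ranked the 6 mice in the same order in both chambers, V334 highest, then V333, V327, V123, V120 and V119.

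Per3 (chr4:151003652-151044665), the Per gene with 2 D-boxes before its start, was at 22.8, 16.7 and 17.2 CPM in control ventricles and at 28.7, 23.8 and 25.6 CPM in CUG960 ventricles. The groups did not overlap, and the log2 fold change of 0.47 ± 0.130 did not pass (adjusted P = 0.054); without V327 it was 0.62 with an adjusted P of 0.020. In atria, V327 was above V120, with 32.1, 26.8 and 23.9 CPM in controls and 35.2, 30.6 and 35.8 CPM in CUG960 mice (log2 fold change 0.30, adjusted P = 0.12). Per3 lies inside the larger gene Camta1 on the same strand, so some reads could be shared. Per2 (chr1:91415982-91459324), a PER protein of the core inhibitory complex, was at 27.8, 28.4 and 28.2 CPM in control atria and at 26.4, 30.8 and 31.3 CPM in CUG960 atria. Its log2 fold change was 0.07 ± 0.075 in atria and 0.25 in ventricles, where the levels were 19.0, 15.6 and 20.6 CPM in controls and 19.9, 22.2 and 23.3 CPM in CUG960 mice, and neither passed (adjusted P = 0.59 and 0.23).

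Per1 (chr11:69095217-69109960), the Per gene that also answers acute signals, varied more among CUG960 mice than between genotypes. It was at 91.6, 55.1 and 35.2 CPM in the atria of V119, V120 and V123 and at 62.3, 46.3 and 22.9 CPM in their ventricles, the same order in both chambers. Controls were closer together, at 49.3, 47.7 and 61.6 CPM in atria and 31.2, 28.8 and 38.6 CPM in ventricles. V119 was above and V123 below all controls in each chamber, and the log2 fold changes of 0.20 and 0.42 did not pass (adjusted P = 0.70 and 0.41). Without V119 the atrial difference of Per1 turned to -0.23, and without V123 the ventricular one was 0.72 with an adjusted P of 0.032.

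Of the 3 targets of the ARNTL pair on the opposite side of the loop, Dbp rose in ventricles, and the other differences did not pass with all mice and the filter on low counts. Dbp (chr7:45705088-45710203) was at 74.3, 26.7 and 18.5 CPM in control atria and at 129, 98.2 and 94.3 CPM in CUG960 atria. Its levels in ventricles were 75.4, 34.2 and 28.0 CPM in controls and 102, 102 and 93.6 CPM in CUG960 mice. In both chambers all CUG960 libraries were above all controls, and the highest control was V327. Ventricular Dbp rose by 1.12 ± 0.302 (log2, adjusted P = 0.048 by edgeR), a 2.17-fold difference, while the atrial log2 fold change of 1.43 ± 0.449 was larger but did not pass (adjusted P = 0.070). Without V327 the values were 2.24 in atria (adjusted P = 0.0019) and 1.68 in ventricles (0.00016), and without V334 the atrial value was 1.09 (0.11). With no filter on low counts, atrial Dbp was called with all mice (1.43, adjusted P = 0.011). The ventricular call was lost without V333 (0.94, adjusted P = 0.13), V334 (0.86, 0.089), V119 (1.09, 0.11), V120 (1.10, 0.13) or V123 (1.15, 0.082), by DESeq2 (1.11, 0.089) and in a single fit of the 12 libraries (1.11, 0.12).

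Nr1d1 (chr11:98767932-98775333) encodes REV-ERBα. It was at 51.8, 22.8 and 19.1 CPM in control atria and at 71.2, 75.0 and 55.6 CPM in CUG960 atria, without overlap. In ventricles, control V327 was at 53.9 CPM, above CUG960 mouse V119 at 53.5 CPM and just under V123 at 54.2 CPM, while V333 and V334 were at 17.0 and 12.8 CPM and V120 at 67.6 CPM. Neither log2 fold change passed, 1.11 ± 0.336 in atria (adjusted P = 0.063) and 1.07 in ventricles (0.16), and without V327 both did, at 1.67 (0.0018) and 1.97 (0.00044). Without V334 the values were 0.85 (adjusted P = 0.12) and 0.72 (0.29), and without V333 they were 0.92 (0.17) and 0.81 (0.33). With no filter on low counts both were called with all mice (1.11, adjusted P = 0.0096, and 1.07, 0.010). Nr1d2 (chr14:18204054-18239127), which encodes REV-ERBβ, was at 164, 104 and 98.03 CPM in control atria and at 179, 170 and 185 CPM in CUG960 atria. Ventricular Nr1d2 was at 155, 109 and 110 CPM in controls and at 180, 138 and 167 CPM in CUG960 mice, with V327 above V120. Neither its atrial log2 fold change of 0.55 ± 0.176 nor its ventricular one of 0.37 passed (adjusted P = 0.073 and 0.15), and without V327 the atrial one was called (0.82, adjusted P = 0.0018), while without V334 it was 0.42 (0.17). The ventricular value was 0.56 without V327 (adjusted P = 0.038) and stayed under the fold limit. Dbp and Nr1d1 each overlap a gene on the opposite strand at an end, Sphk2 over 737 bases and Thra over 1075 bases. The kit kept strand, but whether the counting used it is not given in the sources used here.

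**Figure D2:**
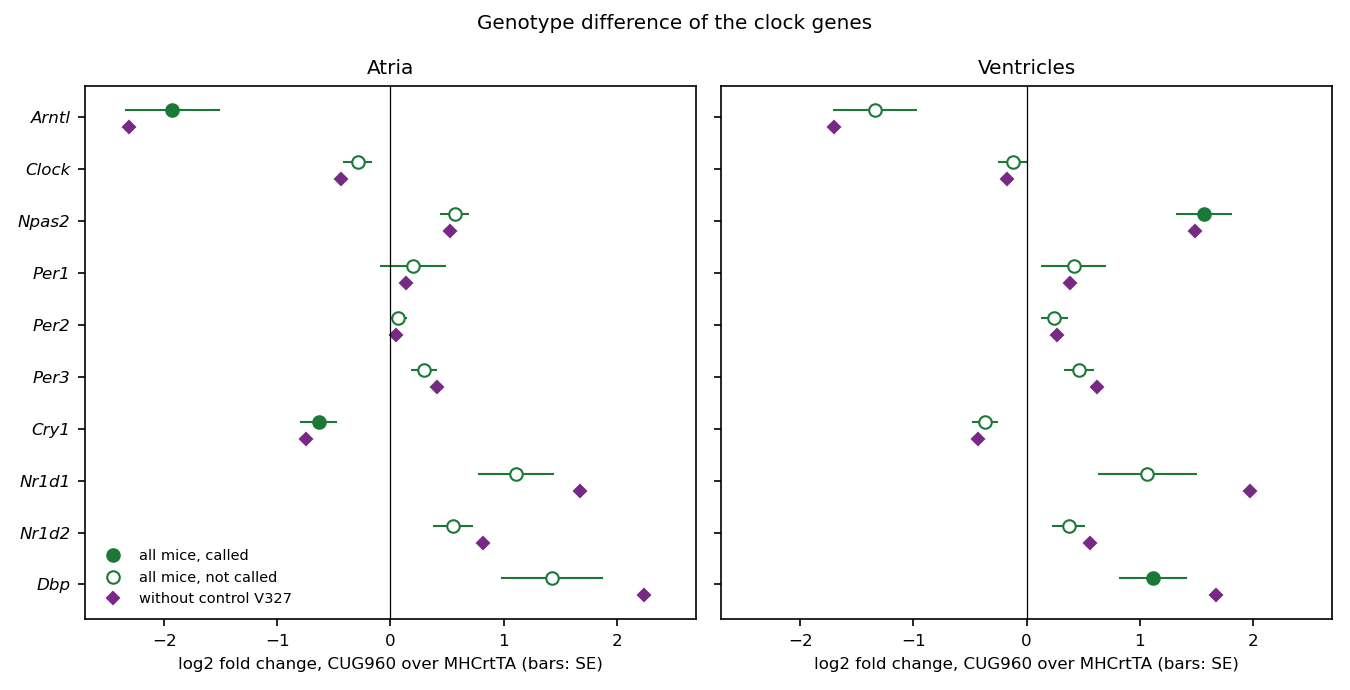
Log2 fold changes of CUG960 +dox over MHCrtTA +dox (x axis) for the 10 clock genes (y axis) in atria and ventricles; circles are all mice with SE, filled where the gene passed the adjusted P and fold limits, and diamonds are the same fit without control V327. The diamonds lie further from 0 than the circles for Arntl, Nr1d1, Nr1d2 and Dbp, and nearer to 0 for Npas2. V327 stood out by the levels of these same genes. For Arntl, Nr1d1, Nr1d2 and Dbp it was the control nearest to the CUG960 mice, so leaving it out had to widen the difference. Fits without each of the other mice are not drawn.

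In all, 2 of the 10 members passed the adjusted P of 0.05 and the fold limit of 1.5 in atria (Arntl and Cry1, both lower) and 2 in ventricles (Npas2 and Dbp, both higher). Of all genes tested, 5.49% were called in atria and 4.75% in ventricles. Without the fold limit 3 members passed in atria, where 14.6% of all genes did, and 2 in ventricles, where 9.94% did. Groups did not overlap for 6 members in atria and 4 in ventricles, against 35.7% and 31.2% of all genes. The median log2 fold change of the members was 0.25 in atria and 0.39 in ventricles, and -0.01 in both chambers over all genes. Without V327, 5 members were called in each chamber, where 4.97% of all genes were called in atria and 3.32% in ventricles. V327 stood out by the levels of these same members, so that fit is no independent support for them. In atria 0 were called without V333, V119 or V120, 1 without V123 and 2 without V334 (Arntl and Npas2), where 3.77% to 4.79% of all genes were. In ventricles 1 was called without V333, V334, V119 or V120 and 2 without V123 (Npas2 and Per1), where 3.25% to 4.25% of all genes were. Fewer cells that express a gene and less RNA per cell cannot be told apart in these whole-chamber libraries.

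Mice of the same genotype differed among themselves. A member was counted as misplaced when its level in a library was nearer to the mean of the other genotype than to the mean of the other 2 mice of its own. Misplaced members in V327 numbered 6 of 10 in atria and the same 6 in ventricles, namely Arntl, Clock, Per3, Nr1d1, Nr1d2 and Dbp. Over all genes tested, 39.7% were misplaced in V327 atria and 33.7% in V327 ventricles. Each of the other 5 mice had 0 to 3 misplaced members per chamber, with 31.3% to 42.8% of all genes. Among the 24 other genes of the clock loop described later, V327 had 12 misplaced in atria, against 3 to 8 in the other mice, but 11 in ventricles, as many as V120 and close to V123 with 10 and V334 with 9. Npas2, Per1, Per2 and Cry1 were not misplaced in V327 in either chamber. For Per1 and Per2 the groups overlapped in both chambers. Cry1 of V327 lay between the other controls and the CUG960 mice, at 21.7 CPM in atria and 16.7 CPM in ventricles, where V123 was at 16.2 CPM. Relative to the mean of its genotype and chamber, a member deviated in the same direction in both chambers for 10 of 10 members in V334, 9 in V327, 8 in V119, 7 in V333, 6 in V123 and 5 in V120, where 47.2% to 58.7% of all genes did so in a mouse. The members correlate with each other, so these counts are not of independent genes.

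The ratio of Dbp to Arntl, whose transcripts peak at nearly opposite times of day, was computed for each library. In atria the count ratio was 19.2, 2.29 and 1.34 in V327, V333 and V334 and 66.1, 31.3 and 36.0 in V119, V120 and V123. The ventricular ratios were 34.9, 6.30 and 3.65 in controls and 60.9, 42.9 and 47.4 in CUG960 mice. The 3 CUG960 mice were highest in both chambers, and V327 lay next to them. Across the 12 libraries, after the chamber means were removed, Pearson's r between the log2 levels of Dbp and Arntl was -0.985, which is a description of libraries that share mice and genotype. Corresponding values with Arntl were -0.97 for Nr1d2, -0.94 for Nr1d1, -0.91 for Per3, 0.88 for Cry1, 0.75 for Clock, -0.53 for Npas2, -0.27 for Per2 and -0.16 for Per1. The part of the time of collection in the differences between mice or genotypes was not tested.

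**Figure D3:**
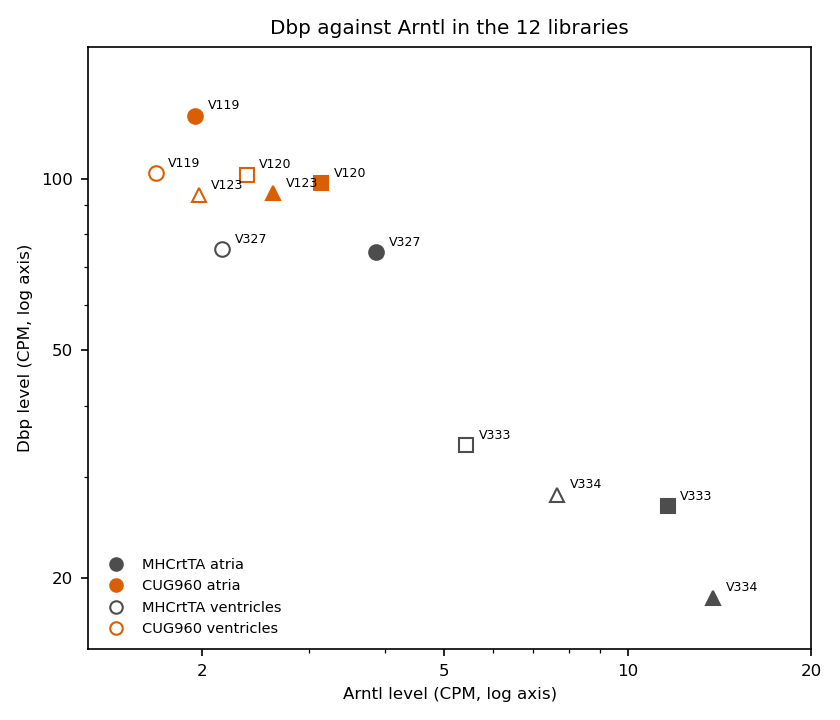
Dbp level (y axis, CPM, log scale) against Arntl level (x axis, CPM, log scale) in the 12 libraries; filled points are atria and open points ventricles, grey for MHCrtTA +dox and orange for CUG960 +dox, labelled by mouse. V333 and V334 lie at low Dbp and high Arntl, and V327 lies between them and the CUG960 libraries.

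Among 12447 genes that averaged 1 CPM or more in each chamber, the pattern most like that of Arntl over the 12 libraries was that of Cacnb1 (r = 0.939), then Leo1, Podn, Heyl and Nfil3 (0.938 to 0.925). Most like Dbp were Ciart (r = 0.98), Lefty1 and Tspan4 (0.97), Nr1d1 (0.955) and Nr1d2 (0.950), which includes both REV-ERB genes. These genes were picked for their likeness over the same libraries, so no test of genotype is given for the ones outside the lists.

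Among other genes of the clock loop, edgeR called 3, the same in both chambers, and DESeq2 called 2 of them in atria (not Rorb, adjusted P = 0.064) and all 3 in ventricles. From a list of 26 such genes, 25 were in the table and 24 were tested, and 3 of 24 were called in each chamber, Ciart and Rorb higher and Nfil3 lower (5.49% of all genes were called in atria and 4.75% in ventricles). The median log2 fold change of the 24 genes was 0.13 in atria and 0.05 in ventricles, against -0.01 over all genes in each. Ciart, which encodes the ARNTL repressor also called CHRONO, was at 2.57, 0.678 and 0.708 CPM in control atria and at 7.54, 4.89 and 3.97 CPM in CUG960 atria. In ventricles it was at 2.77, 1.56 and 1.22 CPM in controls and at 5.56, 4.89 and 5.46 CPM in CUG960 mice. V327 was again the control nearest to the CUG960 group. Ciart rose by 2.06 ± 0.511 in atria (adjusted P = 0.032) and by 1.52 ± 0.261 in ventricles (0.0079), and the atrial call was lost without V333 (1.74, adjusted P = 0.088), V334 (1.76, 0.071), V119 (1.75, 0.11) or V120 (2.13, 0.076).

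Nfil3, the D-box repressor that competes with DBP, was at 8.88, 9.60 and 12.7 CPM in control atria and at 3.86, 5.99 and 5.52 CPM in CUG960 atria. It fell by 1.02 ± 0.189 in atria (adjusted P = 0.011 by edgeR), with every leave-one-out value called (-0.85, adjusted P = 0.027, without V334), and by 0.71 ± 0.185 in ventricles (0.043). Ventricular levels of 13.6, 21.0 and 21.6 CPM in controls and 9.29, 12.2 and 12.9 CPM in CUG960 mice were apart by a small gap at V327, and that call was lost without V333 (-0.62, adjusted P = 0.11), V334 (-0.59, 0.11), V119 (-0.58, 0.12), V120 (-0.76, 0.10) or V123 (-0.80, 0.059). Rorb, a ROR-element activator found mostly in neural tissue, was low in the heart, at 0.479, 0.295 and 0.616 CPM in control ventricles and 3.16, 2.01 and 2.65 CPM in CUG960 ventricles. Ventricular Rorb rose by 2.49 ± 0.284 (adjusted P = 0.0010) and was called whichever mouse was left out. In atria it was at 0.102 to 0.144 CPM in controls and 0.212 to 0.309 CPM in CUG960 mice, a rise of 1.10 ± 0.302 (adjusted P = 0.045) that was lost whenever a mouse was left out (0.97 to 1.25, with an adjusted P of 0.075 to 0.15).

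The remaining members of the loop moved less. Hlf and Tef, the other PAR bZIP activators, had atrial log2 fold changes of 0.55 ± 0.087 (adjusted P = 0.0060) and 0.42 ± 0.102 (0.031), under the fold limit, and without V334 the values were 0.55 (0.020) and 0.34 (0.091). Hlf was at 91.2, 81.6 and 86.4 CPM in control atria and at 123.1, 114 and 141 CPM in CUG960 atria, without overlap and with the 3 controls close together. In ventricles, Hlf at 0.30 and Tef at 0.22 did not pass (adjusted P = 0.11 and 0.12). Cry2, Rora, Bhlhe40 and Bhlhe41 ranged from 0.125 to 0.31 in atria and from 0.05 to 0.31 in ventricles on the same log2 scale, with adjusted P values of 0.060 to 0.84.

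**Figure D4:**
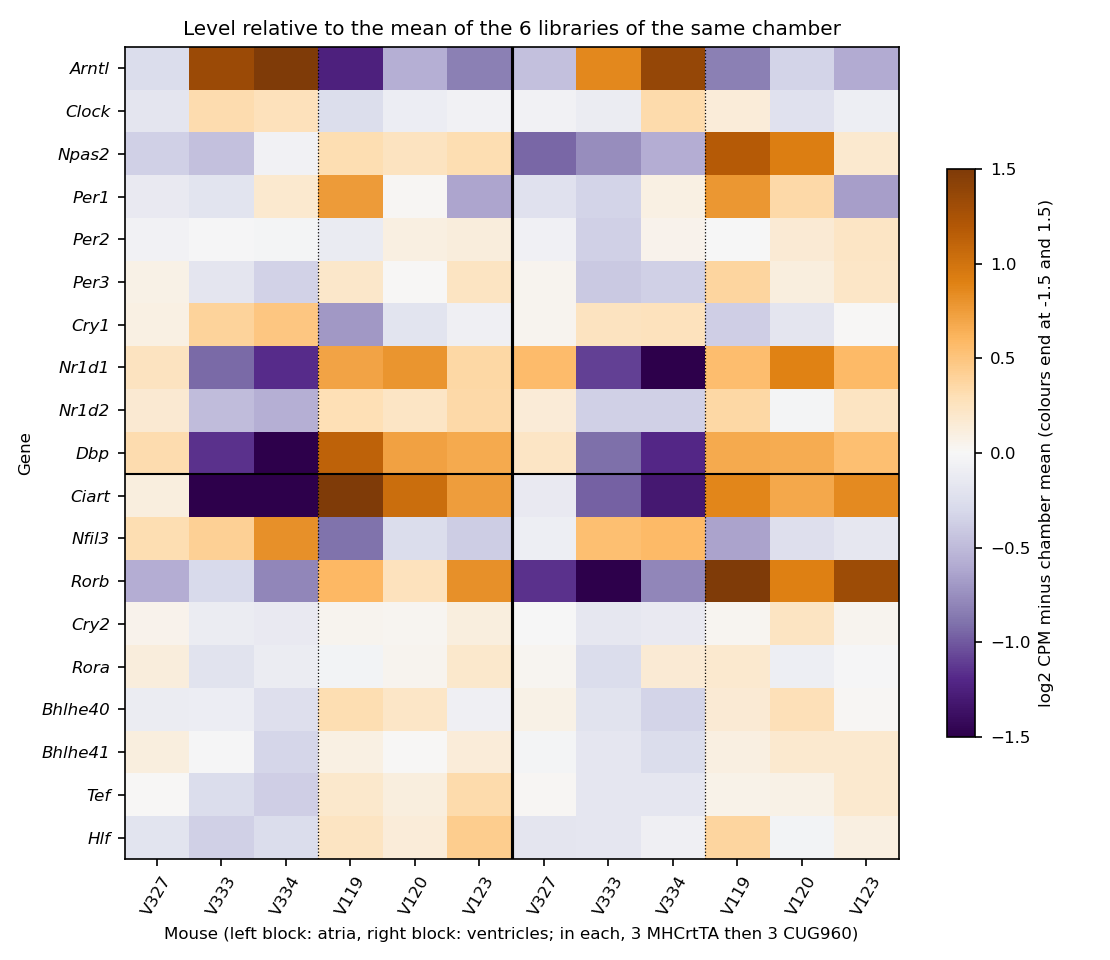
Log2 level of the 10 members (above the line) and 9 other clock loop genes (below it) in each library relative to the mean of the 6 libraries of the same chamber (colour scale, ending at -1.5 and 1.5); columns are mice, atria left and ventricles right, controls before CUG960. V333 and V334 are high in Arntl and low in Nr1d1, Dbp and Ciart in both chambers, and V327 is not. Npas2 and Rorb are below the chamber mean in all controls and above it in all CUG960 mice. Other genes, among them Dbp, Cry1, Ciart and Nfil3, also have genotypes that do not overlap in either chamber, with V327 the control nearest to the CUG960 mice.

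Of 22 listed output genes that are rhythmic in heart or other tissues, 1 was called in atria and 2 in ventricles, by edgeR and by DESeq2, where 5.49% and 4.75% of all genes were called by edgeR, with medians of 0.02 and -0.11 on the log2 scale. Adora1, the adenosine A1 receptor, was at 23.3, 30.5 and 30.6 CPM in control atria and at 45.6, 40.6 and 52.8 CPM in CUG960 atria. It rose by 0.72 ± 0.130 in atria (adjusted P = 0.010) and by 0.97 ± 0.087 in ventricles (0.00026, edgeR), without overlap, and was called whichever mouse was left out (atria without V334 0.78, adjusted P = 0.018). Pdk4, the kinase that holds back pyruvate dehydrogenase and that also rises on fasting, set V327 apart in the opposite direction. It was at 667, 133 and 200 CPM in control atria and at 1000, 239 and 390 CPM in control ventricles, against 108 to 208 CPM and 86.6 to 192 CPM in CUG960 mice. Ventricular Pdk4 fell by 2.10 ± 0.487 (adjusted P = 0.027), and without V327 it was -1.31 with an adjusted P of 0.054, and the call was also lost without V119 (-1.89, 0.088) or V123 (-1.96, 0.078). Angptl4, named here after its values were seen, was likewise highest in V327, at 12.5 CPM in atria and 39.9 CPM in ventricles against 1.13 to 1.78 and 4.30 to 5.17 CPM in the other controls.

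Genes that answer acute stimuli were read beside the members. No gene among 15 glucocorticoid and handling genes was called by edgeR or DESeq2 in atria, or among the 14 tested in ventricles, with 2 in each chamber at an unadjusted P under 0.05. Of all genes, 5.49% were called by edgeR and 6.27% by DESeq2 (of those it gave an adjusted P) in atria and 4.75% and 6.005% in ventricles, and 30.2% in atria and 25.7% in ventricles had an unadjusted P under 0.05. Fkbp5 is a glucocorticoid receptor target. It was at 27.1, 28.8 and 41.9 CPM in control atria and at 10.9, 31.5 and 31.7 CPM in CUG960 atria. The lowest value was that of V119, the mouse with the highest Per1, and a relation of Fkbp5 to Per1 was not tested. Of 15 immediate early genes, 0 were called in atria by edgeR and 1 by DESeq2, 10 had an unadjusted P under 0.05 (30.2% of all genes), and their median log2 fold change was -1.55 with the atria of V334 and -0.15 without them. In ventricles edgeR called 1 of the 15 and DESeq2 2, the second being Nr4a3 (-0.94, adjusted P = 0.026), and 3 had an unadjusted P under 0.05. Nr4a1 rose there by 0.96 ± 0.241 (adjusted P = 0.037), from 5.08, 4.65 and 7.66 CPM to 14.8, 11.1 and 7.96 CPM, and lost the call without V327 (0.88, 0.12), V333 (0.83, 0.10), V119 (0.72, 0.11) or V120 (0.97, 0.10).

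Temperature, which varies over the day, is followed by heat shock and cold-inducible genes, and edgeR called 2 of 12 listed in atria and 1 in ventricles, where 5.49% and 4.75% of all genes were called. DESeq2 called 3 in atria, Hspa1a being the third, and 1 in ventricles. Hsp90aa1, a cytosolic chaperone, fell by 0.76 ± 0.173 in atria (adjusted P = 0.025) and by 0.64 ± 0.090 in ventricles (0.0031). Its ventricular levels were 330, 294 and 322 CPM in controls and 181, 214 and 214 CPM in CUG960 mice, with V327 among the controls, and the ventricular value was -0.56 without V119, under the fold limit. The atrial call was lost without V327 (-0.78, adjusted P = 0.058), V334 (-0.62, 0.063), V119 (-0.67, 0.094) or V123 (-0.66, 0.066). Hspb1 fell by 0.84 ± 0.233 in atria (adjusted P = 0.047), and that call was lost without V334 (-0.56, 0.092) and without V327 (-0.89, 0.089), V119 (-0.81, 0.14), V120 (-1.01, 0.065) or V123 (-0.73, 0.12). Cirbp, a cold-inducible RNA-binding protein, had an atrial log2 fold change of 0.54 ± 0.090 (adjusted P = 0.0070), or 0.52 (0.025) without V334, under the fold limit, with controls at no more than 47.5 CPM and CUG960 mice at 57.9 to 67.0 CPM.

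Between chambers of the same mice, Npas2 and Per2 were lower in ventricles. In controls Npas2 fell by 1.59 ± 0.215 (log2, ventricles over atria, adjusted P = 3.7e-05 by edgeR) and Per2 by 0.61 ± 0.103 (0.00023), the 2 members called where 35.0% of all genes were, and the Per2 call was lost without V333 (-0.50, under the fold limit). With the mouse as a block the count was 4, since Arntl (-0.93, adjusted P = 4.3e-05) and Per1 (-0.69, 5.4e-05) joined them, and both were lower in the ventricle than in the atrium of each of the 3 controls. Per3 at -0.55 and Cry1 at -0.48 passed the adjusted P (0.0035 and 0.018) but not the fold limit, and Cry1 missed that P without V334 (-0.43, 0.091) or V333 (-0.48, 0.081). In CUG960 mice Npas2 alone of the 10 members was called, at -0.59 ± 0.203 (adjusted P = 0.027) and 1.502-fold, where 33.1% of all genes were, and it was not called without V120 (-0.66, 0.074), V123 (-0.34, 0.14), V333 (-0.58) or V334 (-0.58). Per2 at -0.44 (0.0028) and Per3 at -0.38 (0.028) passed the adjusted P under the fold limit, and so did Per1 (-0.48, 0.00067) and Arntl (-0.34, 0.023) with the mouse as a block. Nr1d1, Nr1d2, Dbp and Clock had log2 differences between chambers of -0.25 to 0.20 in either genotype. With the mouse as a block, Nr1d1 at -0.31 (adjusted P = 0.048) and Dbp at 0.32 (0.032) in controls passed the adjusted P but not the fold limit, and without V327 they were -0.49 (0.044) and 0.46 (0.062) in the fit with no block.

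The genotype difference itself was compared between chambers in a fit of all 12 libraries. No member passed by edgeR, 1 (Npas2) passed by DESeq2, and 1 had an unadjusted P under 0.05, where 1.38% of all genes passed by edgeR, 4.08% by DESeq2 and 12.3% had such an unadjusted P. Npas2 had the largest estimate, a genotype difference 1.002 ± 0.294 higher on the log2 scale in ventricles than in atria (adjusted P = 0.15 by edgeR), which was 1.25 with an adjusted P of 0.041 without V123 and 0.995 with 0.027 by DESeq2. For the other 9 members the estimates were -0.31 to 0.59 with SEs of 0.145 to 0.648. The SEs without a block were 0.636 for Arntl, 0.648 for Nr1d1 and 0.618 for Dbp. With the mouse as a block they were smaller, with estimates of 0.59 ± 0.152 for Arntl (adjusted P = 0.11), 0.11 ± 0.166 for Nr1d1 (0.85) and -0.42 ± 0.157 for Dbp (0.28), and no member passed, Npas2 having 0.95 ± 0.257 (0.13).

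Markers of some other cells moved with genotype in the same libraries. The counts of markers called stand against 5.49% of all genes in atria and 4.75% in ventricles by edgeR and 6.27% and 6.005% by DESeq2, and those at an unadjusted P under 0.05 against 30.2% and 25.7%. All 7 endothelial markers were detected in every library, Vwf having the highest mean level in atria and Kdr in ventricles, and they summed to 928, 994 and 795 CPM in control atria and 636, 754 and 681 CPM in CUG960 atria. Of the 7, Pecam1 (-0.71 ± 0.104) and Tek (-0.62 ± 0.107) fell in atria (-0.75 and -0.73 without V334), the call of Tek being lost at the fold limit without V327, V333 or V119 (-0.57, -0.55 and -0.56), and 0 passed both limits in ventricles (4.75% of all genes) by edgeR or DESeq2 (6 at an unadjusted P under 0.05), where Pecam1 at -0.53 had an adjusted P of 0.0018. Adipocyte markers, led by Fabp4, summed to 614, 641 and 502 CPM in control ventricles and 339, 388 and 424 CPM in CUG960 ventricles, with Plin1, Fabp4, Cfd and Retn, 4 of 7 tested, lower (4.75% of all genes were called). Fabp4 is also made by capillary endothelium, and Ucp1, the marker of brown fat, was at 0 in 5 of the 12 libraries. The calls of Plin1 and Cfd held with any mouse left out, that of Fabp4 was lost without V327 (-0.56), V333 (-0.53) or V119 (-0.52), and that of Retn was lost without any mouse but V123 (-1.76 to -2.10, with an adjusted P of 0.055 to 0.096). Smooth muscle and pericyte markers, led by Rgs5, summed to 805, 755 and 806 CPM in control ventricles and 613, 642 and 602 CPM in CUG960 ventricles, with 2 of 5 lower, Myh11 at -0.65 and Tagln at -0.63. Both calls were lost without V327 (-0.56 and -0.48), V334 (-0.53 and -0.62), V119 (-0.71 and -0.53) or V123 (-0.61 and -0.59), and that of Myh11 without V120 (-0.64). None of these 3 sums placed V327 with the CUG960 mice, but sums of other markers or of the other chamber did not all do the same. The smooth muscle and pericyte sum in atria was 393, 309 and 312 CPM in controls and 353, 297 and 488 CPM in CUG960 mice. The atrial fibroblast sum of V327, given below, lay nearer to CUG960 mouse V120 than to the other controls. The 8 cardiomyocyte markers, led by Myh6, summed to 42970, 42110 and 43550 CPM in control atria. In CUG960 atria the sums were 46140, 45870 and 44750 CPM, above all controls. Ventricular sums overlapped, at 57320, 59750 and 56750 CPM in controls and 59250, 63780 and 60750 CPM in CUG960 mice. Myh6 averaged 25510 CPM in control and 29800 CPM in CUG960 atria, and 23310 and 27650 CPM in ventricles. Without the fold limit, edgeR found 2 of the 8 higher and 1 lower in atria (14.6% of all genes passed). In ventricles 1 was higher and 1 lower (9.94%). Only Ryr2 of the 8 was called, at -0.67 ± 0.134 in ventricles, and it was not called without V327 (-0.63, adjusted P = 0.058), V334 (-0.56, 0.039) or V120 (-0.61, 0.064). Fibroblast markers, led by Dcn, summed to 2245, 2584 and 2626 CPM in control atria and 2127, 2214 and 1888 CPM in CUG960 atria. Postn was lower there (-0.73 ± 0.095, and -0.70 without V334). Postn was the only 1 of the 8 called by edgeR in atria, where their median log2 fold change was -0.33. In ventricles 0 of the 8 were called and the median was 0.007, with Postn averaging 50.2 CPM in controls and 50.3 CPM in CUG960 mice. Skeletal muscle markers, led by Ckm, which cardiomyocytes also express, summed to 757 to 802 CPM in control atria and 459 to 557 CPM in CUG960 atria, with Ckm (-0.60) and Tnnt3 (-2.05) lower, Ckm under the fold limit without V327 (-0.58) or V120 (-0.53), and both called without V334 (-0.61 and -2.13). Tagln was higher in atria (1.21 ± 0.312), a call lost without V334 (1.08, adjusted P = 0.095), V333 (1.05, 0.11), V119 (1.26, 0.091) or V123 (0.88, 0.086). It was the only 1 of the 5 smooth muscle and pericyte markers called there by edgeR, and their median log2 fold change was 0.037. Means in CUG960 atria were higher for Acta2 and Myh11, and lower for Rgs5 (70.3 against 89.9 CPM) and Pdgfrb (37.6 against 48.8 CPM). Dbh, the noradrenaline synthesis enzyme of sympathetic neurons, was at 4.72, 4.84 and 3.06 CPM in control atria and at 1.70, 1.79 and 1.84 CPM in CUG960 atria. It fell by 1.24 ± 0.184 in atria (adjusted P = 0.0045, and -1.43 with 0.0011 without V334) and by 1.49 ± 0.275 in ventricles (0.011), where the call was lost without V120 (-1.36, 0.054). Of 8 macrophage and leukocyte markers, 0 were called by edgeR, and by DESeq2 1 in atria and 2 in ventricles (1 in atria and 2 in ventricles at an unadjusted P under 0.05 by edgeR), and their sum, led by Csf1r, was highest in the atria of V334 with 160 CPM against 94.97 to 109 CPM in the other atria. The part of cell composition in the levels of the clock genes was not tested.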

How the data were processed

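The authors sequenced stranded poly(A) libraries and estimated counts per gene on GRCm38 with RSEM 1.3.1. The deposited table holds these expected counts, whole numbers and unscaled, per gene and library. Members and gene lists were chosen with earlier results of these data known. Counts were tested with edgeR 4.0.16 in R 4.3.3 (filterByExpr, TMM, quasi-likelihood test, Benjamini-Hochberg over all genes tested), each chamber on its own for genotype, and all 12 libraries together for the chamber contrasts and the interaction. Calls needed an adjusted P under 0.05 and a change of 1.5-fold or more, without the fold limit for the interaction. SE is the log2 fold change over the root of F. All 17650 genes kept in atria and 16909 in ventricles were tested. Printed CPM use 1 TMM scale over the 12 libraries, whereas the fits within a chamber use their own. Pattern likeness is Pearson's r of log2 CPM (prior count 2) centred by chamber.

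The chambers carry the same mouse numbers and come from the same animals, so the numbers pair chambers but not genotypes. After group means were subtracted, the libraries of a mouse correlated at r = 0.030 to 0.135 and others at -0.150 to 0.124. Libraries are separate animals within a chamber, and an exact permutation test of 3 against 3 cannot go under 0.1. Named genes were the members, listed genes called in at least 1 chamber (up to 6 per list), further loop genes, the most abundant and the called markers of each cell type, and the 5 genes most like Arntl and Dbp; Fos, Egr1, Fkbp5, Cirbp, Angptl4, Hspa1a, Myl7, Myl4 and Sln were added once their values were known, and a few genes under this rule are not reported here. The edgeR tests of genotype, chamber and interaction were checked on simulated counts, without the fold limit. The other steps were not checked in this way. Alternatives were DESeq2 1.42.0, RLE and upper quartile scaling, other filters and fold limits, a single fit, no mitochondrially encoded genes, a replicate block, and each mouse left out. Sequences came from RefSeq (GRCm38.p6), and coordinates from GENCODE M21, a later release than the authors' annotation.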

Additional observations from a re-analysis of the deposited data

Results flagged for a closer look

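For 5 listed genes the genotype difference itself differed between chambers (edgeR, interaction of chamber and genotype over 12 libraries), where 1.38% of all genes passed. They were 2 of 22 clock output genes, 2 of 6 atrial cardiomyocyte markers and 1 of 5 smooth muscle and pericyte markers. DESeq2 called 5 of the 22 output genes, where it called 4.08% of all genes. Among output genes of the clock, Kcnd2, a subunit of the transient outward potassium channel, had a difference 0.62 ± 0.130 lower on the log2 scale in ventricles than in atria (-0.618, adjusted P = 0.038), with levels of 20.9, 21.5 and 21.6 CPM in control atria and 28.9, 30.4 and 34.5 CPM in CUG960 atria. Herpud1, an endoplasmic reticulum stress gene, had -0.531 ± 0.105 (adjusted P = 0.030), from 239, 229 and 262 CPM in control ventricles to 159, 175 and 171 CPM. Among cell type markers the values were 1.721 for Nppa (adjusted P = 0.049), -4.098 for Bmp10 (0.0021) and -1.845 for Tagln (0.045). Tagln was higher in atria (1.21) and lower in ventricles (-0.63) of CUG960 mice. Bmp10 passed with any mouse left out (-3.63, adjusted P = 0.0059, without V334, the mouse whose atria stood apart). It was at 2.39 to 3.75 CPM in control ventricles and 0.034 to 0.275 CPM in CUG960 ventricles. The atrial markers Myl7 and Sln were also higher in control ventricles (4.98 to 19.3 and 2.90 to 7.84 CPM) than in V119 and V120, but highest in V123. The part of such atrial signal in the Bmp10 difference was not tested. Without V334, Nppa passed (2.07, 0.049) but Kcnd2 (-0.67, 0.092), Herpud1 (-0.49, 0.11) and Tagln (-1.69, 0.16) did not. Without V123, the mouse with high atrial markers in its ventricles, Kcnd2 passed and Herpud1 (-0.57, 0.082), Nppa (1.73, 0.15) and Tagln (-1.47, 0.16) did not. Each of these 4 also missed the threshold without 2 or more of the other mice. The groups of Dgat2, a triglyceride synthesis gene, were apart in opposite directions, by 0.44 on the log2 scale in atria and by -0.071 in ventricles. Neither passed, and the difference between chambers had an adjusted P of 0.16. None of the 10 clock genes was among these.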

How the results depend on the processing

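Of 650 alternative values of the 10 members over the 5 comparisons, 598 kept the direction and the call, 22 lost a call, 22 gained one and 8 changed sign. Without a fold limit 2573 genes were called in atria and 1680 in ventricles, and at a limit of 1.5 on the log2 scale the numbers were 216 and 199, with 1 clock gene in each chamber. Without a filter on low counts 4 clock genes were called in atria (Arntl, Cry1, Nr1d1 and Dbp), 4 in ventricles (Arntl, Npas2, Nr1d1 and Dbp) and 4 between chambers in controls. DESeq2 called 1 clock gene in ventricles, 0 between chambers in CUG960 mice, and 1 in the interaction, where it called 660 genes against 253 by edgeR, and a single fit of 12 libraries called 1 in ventricles. With at least 10 counts in every library 3 were called in ventricles, Arntl being the third. RLE size factors gave 0 between chambers in CUG960 mice. With the mouse as a replicate block, 4 clock genes were called between chambers in controls, the interaction of Nr1d1 turned to 0.108, and 0 clock genes were called in the interaction. That block changed no other count of members called. With a mouse left out, the clock genes called numbered 0 to 5 in atria, 1 to 5 in ventricles, 0 to 1 in the interaction (with 74 to 131 genes of any kind), 1 to 3 between chambers in controls and 0 to 1 in CUG960 mice. Signs changed for Per1 in atria (-0.230 to 0.466), Clock in ventricles (-0.216 to 0.039), the interaction of Nr1d1 (-0.126 to 0.288), the chamber difference of Nr1d2 in controls (-0.009 to 0.122), and those of Clock (-0.218 to 0.020) and Dbp (-0.188 to 0.035) in CUG960 mice. The cause of these changes was not tested. With 3 mice a group, differences small against the spread between mice could be missed. Counting error adds most for Npas2 in controls (lowest count 124) and for Arntl in CUG960 mice (lowest count 245).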
